A study of Mus musculus with 12 samples.

Results

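The comparison described here is the interaction between dexamethasone and genotype in mouse embryonic fibroblasts (MEFs): the Dex change in GR-C3 knockin cells minus the Dex change in wild-type (WT) cells. It was formed from the 4 groups of the series, 3 arrays each, so it draws on 12 of 12 arrays, and it was also computed on 11 arrays, without the array labelled WT vehicle 1. The groups were WT and homozygous GR-C3 knockin MEFs, treated for 6 h with vehicle or with dexamethasone (Dex) at 100 nM. Dex is a synthetic glucocorticoid. The MEFs of both genotypes were made at E12.5, and the line was maintained on a C57Bl/6 background. In the knockin, exon 2 of Nr3c1, the glucocorticoid receptor gene, kept the start codon of the GR-C3 isoform, while the start codons of the other translational isoforms were mutated. The allele was carried in every cell of the homozygous animals and derived from 1 embryonic stem cell clone. Whether replicates of a group are different embryos or culture dishes is not given in the sources used here, so a p-value here covers no more than the spread among these arrays, which may be technical.

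The glucocorticoid receptor is a ligand-activated transcription factor that resides in the cytoplasm with chaperones and moves to the nucleus when it binds hormone. It raises transcription of many genes through glucocorticoid response elements, and it lowers transcription of many inflammatory genes, in part through other factors bound to DNA. Ribosomes can start translation of its mRNA at several internal start codons, which gives receptors with N-terminal regions of different length, and GR-C3 is one of these shorter forms.

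Without WT vehicle 1, most responses that differed between the genotypes were smaller in GR-C3 cells. Of 20835 genes tested, limma called the interaction for 237 at an adjusted p under 0.05, which is 1.14% of all genes, 67 of them higher (0.322%) and 170 lower (0.816%). Genes with a large loss, well above background on all 11 arrays, included the transporter gene Slc45a3, the regulator Tcim, the receptor accessory protein gene Ramp2 and the cell cycle regulator Rgcc among induced genes, and the chemokine gene Cxcl5, the hyaluronan synthase gene Has2 and the oxysterol enzyme gene Ch25h among repressed genes. The clock gene Per1, the glucocorticoid-induced leucine zipper gene Tsc22d3, the sulfotransferase gene Sult1a1 and the cytokine gene Il11 responded in both genotypes. For Sult1a1, whether the responses differed depended on the background correction. Oas1d and Kcnj8 responded in GR-C3 cells and gave no called response in WT cells, though for Oas1d this depended on the background correction.

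With all 12 arrays no interaction was called by limma, 0% of the genes tested, with a smallest adjusted p of 0.182, and 1281 genes (6.15%) had an unadjusted p under 0.05. The array labelled WT vehicle 1 correlated at 0.983 with the other WT vehicle arrays and at 0.987 to 0.989 with the WT Dex arrays, whereas the other 2 WT vehicle arrays correlated at 0.998 with each other. It was also the only array on slide 1 and the only one scanned on the second scan day. For the 237 called genes, the WT vehicle and WT Dex arrays did not overlap in 231 without that array and in 65 with it. These genes were called on the arrays without WT vehicle 1, so this drop follows in part from their selection. Overlap was not counted over all genes. The array was left out because of its values, so the 11-array results are not independent of that choice. All values below are from 11 arrays unless 12 are named, while the level on WT vehicle 1 is always given.

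Levels are log2 processed signal minus the log2 of the array's 75th percentile, so a level of 0 equals that percentile, and a change of 1 is a 2-fold change. The 75th percentile lay between 884 and 1821 intensity units, and the share of probes well above background was 71.3% to 79%. Fibroblast markers (10 of 10 measured) summed to 692 to 941 times the percentile on every array. Chondrocyte markers (8 of 10 measured) summed to 47.7 to 62.2 on WT arrays and 7.1 to 7.6 on GR-C3 arrays, and epithelial markers (6 of 10) to 1.06 to 1.42 and 4.24 to 5.79, with none of either list called in the interaction. The Y-linked gene Ddx3y lay between 1.26 and 1.91 on WT arrays and between -8.93 and -6.46 on GR-C3 arrays. Sex-linked and lineage markers thus differed between the genotypes with and without Dex, and sex, culture make-up and genotype cannot be told apart. Slide 2 held 2 WT vehicle arrays and WT Dex 1, slide 3 WT Dex 2 and 3 with GR-C3 vehicle 1 and 2, and slide 4 GR-C3 vehicle 3 with the 3 GR-C3 Dex arrays, so no slide gives an interaction of its own.

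Dex itself changed 2547 genes (12.2%) in WT cells, 1121 upwards (5.38%) and 1426 downwards (6.84%), and 722 genes (3.47%) in GR-C3 cells, 436 upwards (2.09%) and 286 downwards (1.37%). Both changes were called in the same direction for 467 genes and in opposite directions for 4. With 12 arrays the counts were 25 (0.12%) in WT and 21 (0.101%) in GR-C3 cells. The interaction shares the WT arrays with the WT change, so a chance high or low WT mean enters both.

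**Figure D1:**
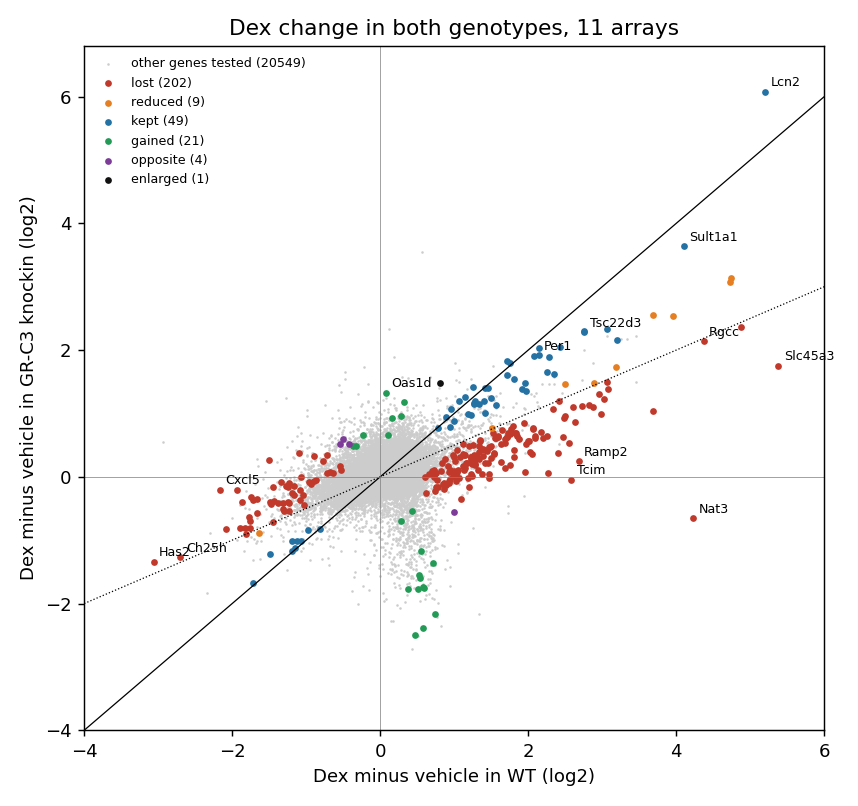
Dex change in WT cells (horizontal axis, log2) against the Dex change in GR-C3 cells (vertical axis, log2) for the 20835 genes tested, on 11 arrays. Each point is a gene, the solid line marks equal change, the dotted line marks a GR-C3 change of 0.5 times the WT change, and colours mark the classes. The 202 lost genes lie mostly between the dotted line and a GR-C3 change near 0, and the 49 kept genes lie near the solid line.

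The called interactions were sorted by the response in each genotype. A response was counted as lost where WT cells responded, the interaction was called against that response, and the GR-C3 change was below 0.5 times the WT change; it was counted as reduced at 0.5 times or above. Lost responses numbered 202 (0.97% of all genes), of which 148 were inductions and 54 repressions, and reduced responses numbered 9. Among the lost genes the median size of the change was 1.37 in WT and 0.351 in GR-C3 cells, and the GR-C3 change was 24.5% of the WT change in the median gene. Of the 202 lost genes, 172 kept the sign of the WT change and 75 were still called in GR-C3 cells. For the lost genes without a call in GR-C3 cells, the data do not tell a small response from none. A kept response required calls in both genotypes and a 95% interval of the interaction inside plus or minus 0.5 times the WT change, and 49 genes (0.235%) met it, 40 induced and 9 repressed. Gained responses numbered 21 (0.101%), 8 upwards and 13 downwards in GR-C3 cells, 4 genes were called in opposite directions, and 1 response was enlarged. The remaining 2283 genes called in WT cells were neither lost, reduced, kept nor opposite. Apart from any gained or enlarged gene among them, the data showed neither a difference nor likeness at this precision. The median 95% interval reached 0.43 to either side of the estimate.

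The calls depended on single arrays and on the slide. Leaving out 1 more array gave between 58 calls (without WT vehicle 3) and 1183 (without WT Dex 1), with 68 without WT vehicle 2, 120, 106 and 182 without GR-C3 vehicle 1, 2 and 3, and 94 and 124 without GR-C3 Dex 2 and 3. With the slide as a fixed block 36 interactions were called, 31 of them among the 237, and of the 60 called genes named here 10 remained: Slc45a3, Tcim, Ramp2, Rgcc, Errfi1, Notch4, Rgs2, Mt1, Ch25h and Kdr. Slc45a3, Tcim, Ramp2, Rgcc, Errfi1, Notch4, Rgs2, Ch25h, Ccl2, Cebpd, Cxcl5, Fgf5, Has2, Pdzrn4 and Rassf9 were also called whichever of the 11 arrays was left out. Plain normexp background correction gave 0 calls by limma (460 genes at an unadjusted p under 0.05) and turned the sign for 19 of the 80 named genes, among them Cxcl5, Fgf5, Pdgfb, Dkk1, Oas1d, Kcnj8, Kdr and Abcc9. With outlying local backgrounds replaced (repaired backgrounds below) it gave 231 calls, 175 of them among the 237, and 21 of the 60 called genes named here lost the call. Of these, Bnip3 (-0.70), Calcrl (0.59), Irgm1 (0.75) and Kprp (0.96) kept values near the 11-array ones, with adjusted p of 0.0506 to 0.0773.

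A second description did not choose genes on the WT change, but on a weighted average of the Dex changes of both genotypes, called for 14.2% of all genes. Over 1360 genes (6.53%) called upwards, 1034 (76%) had a smaller change in GR-C3 cells, with median changes of 0.66 in WT and 0.42 in GR-C3 cells. Over 1606 genes (7.71%) called downwards, 1379 (85.9%) had a smaller change in GR-C3 cells, with medians of -0.54 and -0.29. For induced genes this rested on 2 arrays: with 12 arrays 90 of 211 (42.7%) were smaller, with medians of 0.63 and 0.77, and without GR-C3 vehicle 3 it was 1040 of 2019 (51.5%). For repressed genes the share was 174 of 236 (73.7%) with 12 arrays and 88.1% without GR-C3 vehicle 3.

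Among the lost inductions, Slc45a3, a member of a sugar transporter family, had the lowest interaction of the genes that were well above background on all 11 arrays. Its probe lies on chromosome 1 (131877630 to 131877689, build mm7 per the file headers). Slc45a3 lay at 0.92, -4.09 and -4.12 on WT vehicle arrays 1 to 3 and at 0.96, 1.49 and 1.38 on the WT Dex arrays. In GR-C3 cells it lay at -4.11, -4.14 and -4.23 with vehicle and at -2.44, -2.49 and -2.31 with Dex. The vehicle arrays of both genotypes started at the same level apart from WT vehicle 1, which lay next to the WT Dex arrays, and every GR-C3 Dex array stayed below every WT Dex array. Slc45a3 rose by 5.38 ± 0.15 (log2, SE), or 41.7-fold, in WT cells and by 1.75 ± 0.13, or 3.36-fold, in GR-C3 cells. The interaction was -3.64 ± 0.19 (adjusted p = 6.65e-05), and with 12 arrays it was -1.96 ± 1.4 (adjusted p = 0.878).

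Tcim, a small transcriptional and immune response regulator on chromosome 8 (23223615 to 23223674, mm7), showed no called response in GR-C3 cells. Its WT vehicle levels were -0.26, -1.70 and -1.59, its WT Dex levels 1.01, 1.05 and 0.75, its GR-C3 vehicle levels -0.35, -0.21 and -0.33, and its GR-C3 Dex levels -0.40, -0.29 and -0.34. The WT groups did not overlap even with WT vehicle 1 included, the GR-C3 groups overlapped, and GR-C3 vehicle lay above the 2 other WT vehicle arrays. The change was 2.58 ± 0.11 in WT and -0.05 ± 0.098 in GR-C3 cells, and the interaction was -2.62 ± 0.15 (adjusted p = 6.65e-05). With 12 arrays the interaction was -2.16 ± 0.42 (adjusted p = 0.503).

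Ramp2, which carries the calcitonin-receptor-like receptor to the cell surface and is also an endothelial marker, lay at 1.83, -1.47 and -1.45 on the WT vehicle arrays and at 1.18, 1.35 and 1.13 on the WT Dex arrays. In GR-C3 cells it lay at -1.89, -1.75 and -1.77 with vehicle and at -1.48, -1.65 and -1.54 with Dex. WT vehicle 1 was above all WT Dex arrays, and the GR-C3 groups were close but did not overlap. The WT change was 2.68 ± 0.099, the GR-C3 change 0.25 ± 0.089 (adjusted p = 0.185), and the interaction -2.43 ± 0.13 (adjusted p = 6.65e-05), against -1.33 with 12 arrays. Endothelial markers (7 of 10 measured) summed to 1.57 to 5.11 on WT vehicle, 3.52 to 4.15 on WT Dex, 2.95 to 3.23 on GR-C3 vehicle and 3.25 to 3.5 on GR-C3 Dex arrays, and Ramp2 was the only one of them called in the interaction. Calcrl, the receptor that Ramp2 serves, moved the other way, falling by 1.03 in WT and by 0.45 in GR-C3 cells (interaction 0.58, adjusted p = 0.0474).

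Rgcc, a regulator of the cell cycle, kept a clear response at a lower height. It lay at 4.30, -0.54 and -0.21 on the WT vehicle arrays, at 4.02, 4.17 and 3.81 on the WT Dex arrays, at -0.54, -0.58 and -0.45 on the GR-C3 vehicle arrays and at 1.69, 1.58 and 1.57 on the GR-C3 Dex arrays. Dex raised it 20.7-fold in WT and 4.40-fold in GR-C3 cells, and the interaction was -2.23 ± 0.18 (adjusted p = 0.000583; -0.68 with 12 arrays). Errfi1, an inhibitor of EGF receptor signalling, lay at 3.53, 0.86 and 0.99 with vehicle and 3.69, 3.47 and 3.52 with Dex in WT cells, and at 2.02, 2.09 and 2.18 with vehicle and 2.95, 2.97 and 2.99 with Dex in GR-C3 cells. The GR-C3 vehicle arrays lay above the 2 other WT vehicle arrays while the GR-C3 Dex arrays lay below all WT Dex arrays, and no groups overlapped apart from WT vehicle 1. The rise was 6.2-fold in WT and 1.83-fold in GR-C3 cells (interaction -1.76 ± 0.13, adjusted p = 0.00045; -0.89 with 12 arrays).

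**Figure D2:**
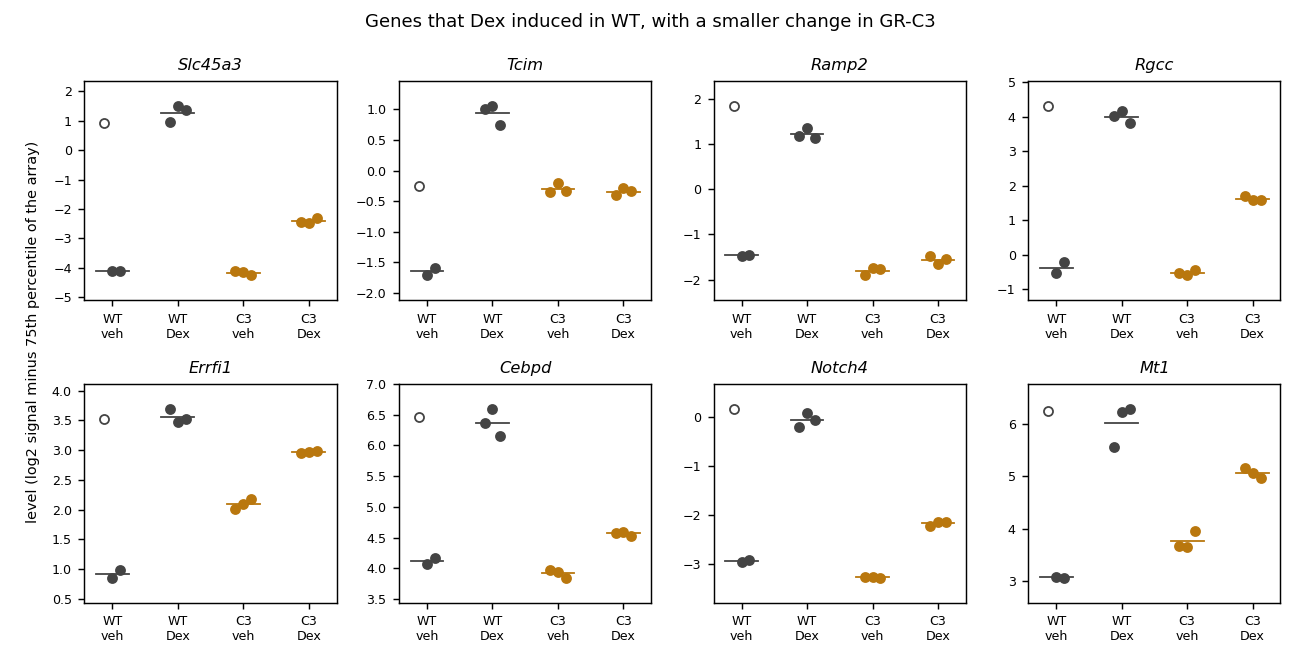
Level of 8 genes with a lost induction (vertical axis, log2 signal minus the 75th percentile of the array) by group (horizontal axis). Points are arrays, the open circle is WT vehicle 1, and bars are group means, for WT vehicle without array 1. For Slc45a3, Ramp2, Rgcc, Errfi1, Notch4, Cebpd and Mt1 the GR-C3 Dex arrays stand above GR-C3 vehicle and below WT Dex, and for Tcim the GR-C3 groups overlap.

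A few lost inductions can be set beside a sequence. Promoters were taken from RefSeq (GRCm38.p6) as 250 bases before to 50 after each gene's start, and 57 of the 80 named genes had an entry. They were searched for ACANNNTGT, the spaced core of the palindromic glucocorticoid response element (N is any base), which reads the same on both strands. The core occurred in 7.9% of the 27025 genes with a promoter and in 5.96% of the 13262 tested genes with one. Promoters of the lost inductions Slc45a3, Rgcc, Errfi1, Rgs2 and Adcy5 held no core. Outside the lost inductions, it also occurred in Calcrl, Pabpc4l, Spata5l1 and the gained Olfr738, so the core does not mark lost inductions. Fewer than 80% of the genes of each class had an entry, so shares were not compared between classes. The windows below show the core, in capitals, for 4 lost genes and, for comparison, the kept gene Lcn2; each is written 5′ to 3′ on the gene's strand.
Glul (lost), chr1:153899858-153899928 (+): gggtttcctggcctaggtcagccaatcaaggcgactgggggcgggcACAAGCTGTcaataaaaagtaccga
Kcna5 (lost), chr6:126535558-126535658 (-): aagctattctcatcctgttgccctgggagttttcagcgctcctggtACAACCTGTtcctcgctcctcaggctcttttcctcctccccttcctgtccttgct
Mt1 (lost), chr8:94178951-94179051 (+): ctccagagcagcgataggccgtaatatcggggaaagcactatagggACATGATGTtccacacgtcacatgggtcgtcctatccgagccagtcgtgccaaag
Notch4 (lost), chr17:34564237-34564294 (+): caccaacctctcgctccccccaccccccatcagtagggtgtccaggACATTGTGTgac
Lcn2 (kept), chr2:32387837-32387937 (-): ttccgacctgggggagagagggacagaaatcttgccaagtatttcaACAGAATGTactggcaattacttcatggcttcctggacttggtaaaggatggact
The core began 25 bases before the start in Glul, 57 in Kcna5, 92 in Mt1, 12 in Notch4 and 152 in Lcn2. A match is a description of letters and not a binding site, and most response elements lie outside such windows.

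The genes behind these windows behaved as follows. Mt1, a metallothionein that binds zinc and copper, lay at 6.26, 3.07 and 3.06 with vehicle and 5.57, 6.24 and 6.29 with Dex in WT cells, and at 3.67, 3.65 and 3.95 with vehicle and 5.16, 5.07 and 4.97 with Dex in GR-C3 cells. WT Dex 1 was the lowest of its group but still above all GR-C3 Dex arrays. Mt1 rose 7.80-fold in WT and 2.48-fold in GR-C3 cells (interaction -1.65 ± 0.27, adjusted p = 0.0202; -0.59 with 12 arrays). Its neighbour Mt2 was reduced rather than lost, 12.9-fold against 5.89-fold (interaction -1.13, adjusted p = 0.0197), and its 12-array interaction was 0.03, without the direction of the 11-array value. Glul, glutamine synthetase, lay at 4.12, 0.16 and 0.17 on WT vehicle and 2.89, 3.66 and 3.14 on WT Dex arrays and at 0.61, 0.27 and 0.50 on GR-C3 vehicle and 1.76, 2.08 and 2.03 on GR-C3 Dex arrays, with WT vehicle 1 the highest of all 12. It rose 8.38-fold in WT and 2.82-fold in GR-C3 cells (interaction -1.57, adjusted p = 0.0278; -0.25 with 12 arrays).

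Notch4, a Notch receptor best known in endothelium, rose from -2.96 and -2.92 (0.17 on WT vehicle 1) to -0.20, 0.10 and -0.06 in WT cells and from -3.26, -3.26 and -3.28 to -2.22, -2.15 and -2.14 in GR-C3 cells. The rise was 7.38-fold and 2.14-fold, and the interaction was -1.79 ± 0.13 (adjusted p = 0.00045; -0.75 with 12 arrays). Kcna5, a voltage-gated potassium channel gene, was not well above background on the 2 WT vehicle arrays used and rose at least 5.67-fold in WT cells, against a 2.06-fold change that was not called in GR-C3 cells (adjusted p = 0.14). It lay at -4.05, -4.49 and -4.60 on WT Dex arrays (-4.46 on WT vehicle 1). GR-C3 vehicle arrays were already near that level, at -4.68, -4.62 and -4.56. GR-C3 Dex arrays, at -3.57, -3.61 and -3.55, lay above all WT Dex arrays. With repaired backgrounds its interaction was -0.49 (adjusted p = 0.212), against -2.64. A fold is given as "at least" where one group was not well above background on any array, using the lowest signal well above background as its level.

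The list of 40 glucocorticoid-induced genes, 38 of them measured, had the largest share of called interactions among the 35 lists. Its members were chosen with earlier results of these data known, so this rank and the shares below are descriptions only. In WT cells 27 rose and 2 fell, where 5.38% of all genes rose and 6.84% fell. In GR-C3 cells 22 rose and 2 fell, where 2.09% of all genes rose and 1.37% fell. The interaction was called lower for 11 (28.9%, against 1.14% of all genes) and higher for 0. The 7 lost members were Sgk1, Mt1, Errfi1, Rgcc, Slc45a3, Glul and Cebpd, the 4 reduced were Fkbp5, Mt2, Fam107a and Pdk4, the 6 kept were Per1, Tsc22d3, Cdkn1c, Lcn2, Sult1a1 and Tgm2, and the others were in no class. The median change of the list was 1.33 in WT and 0.63 in GR-C3 cells, beside 0.02 and -0.01 over all genes, and its median interaction was -0.52 (0.015 over all genes). The interaction was negative in 33 of 38 members, and with 12 arrays the median was -0.125.

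Cebpd, a transcription factor of early adipogenesis, lay at 6.47, 4.07 and 4.17 on WT vehicle, 6.37, 6.59 and 6.15 on WT Dex, 3.97, 3.94 and 3.85 on GR-C3 vehicle and 4.58, 4.59 and 4.53 on GR-C3 Dex arrays. The vehicle levels of the genotypes were close apart from WT vehicle 1, and the Dex levels did not overlap. It rose 4.75-fold in WT and 1.57-fold in GR-C3 cells (interaction -1.60, adjusted p = 0.00241; -0.82 with 12 arrays). Sgk1, Fkbp5, Fam107a, Tgm2 and, below, Ptx3 lie outside the naming rule and were chosen after their values were seen. Sgk1, a kinase that regulates ion channels, rose 4.17-fold in WT and 1.71-fold in GR-C3 cells (interaction -1.29, adjusted p = 0.00275). Fkbp5, a co-chaperone of the receptor, lay at 1.51, -2.64 and -2.74 on WT vehicle arrays and rose 26.4-fold in WT and 8.41-fold in GR-C3 cells (interaction -1.65, adjusted p = 0.00648; -0.25 with 12 arrays). Pdk4, which limits pyruvate oxidation, rose 5.65-fold and 2.76-fold (interaction -1.03, adjusted p = 0.0193; -0.33 with 12 arrays).

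In each other list with a called interaction, 1 to 4 measured members were called. In the adipogenic program, Cebpa, Cebpd and Klf5 of 22 measured were lost (13.6% called, against 1.14% of all genes). Cebpa, the factor that follows Cebpd in adipocyte differentiation, rose 2.73-fold in WT cells and 1.17-fold, not called, in GR-C3 cells (interaction -1.22, adjusted p = 0.031). Klf5 rose 2.41-fold and 1.27-fold (interaction -0.93, adjusted p = 0.0431). Its vehicle level was 0.704 higher in GR-C3 cells, and with Dex limma called no difference between the genotypes (-0.22, adjusted p = 0.157). The median interaction of this list was -0.14.

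Of 21 measured genes of protein turnover and FoxO targets, 4 had a lower interaction (19%, against 0.816% of all genes): Fbxo32, Sesn1 and Bnip3 were lost and Pdk4 was reduced, and the list's median interaction was -0.30. Fbxo32, the muscle ubiquitin ligase atrogin-1, lay at 0.71, -0.56 and -0.69 on WT vehicle, 0.49, 0.68 and 0.23 on WT Dex, 0.06, 0.30 and 0.02 on GR-C3 vehicle and -0.35, -0.23 and -0.10 on GR-C3 Dex arrays. The WT Dex arrays were above the other WT vehicle arrays, and the GR-C3 Dex arrays were all below the GR-C3 vehicle arrays, though that change was not called (-0.35, adjusted p = 0.2). Its interaction was -1.44 (adjusted p = 0.00977; -0.997 with 12 arrays). Sesn1, a stress-induced inhibitor of mTORC1, rose 2.32-fold in WT cells and 1.24-fold, not called, in GR-C3 cells (interaction -0.91, adjusted p = 0.00654).

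Among 37 measured genes of G protein and cAMP signalling, Adcy5, Adra2a and Rgs2 had a lower interaction and Rgs16 a higher one (10.8% called, against 1.14% of all genes). Rgs2, which shortens G protein signals, lay at 3.40, 1.16 and 1.23 on WT vehicle, 3.43, 3.32 and 3.12 on WT Dex, 0.10, 0.17 and 0.14 on GR-C3 vehicle and 0.88, 0.77 and 0.68 on GR-C3 Dex arrays, so it was lower in GR-C3 cells before and after Dex. It rose 4.27-fold and 1.56-fold (interaction -1.45, adjusted p = 0.00241; -0.72 with 12 arrays). Adcy5, an adenylyl cyclase gene, rose 4.59-fold and 1.53-fold (interaction -1.58, adjusted p = 0.00977), and the adrenergic receptor gene Adra2a rose 2.89-fold and 1.61-fold (interaction -0.85, adjusted p = 0.0125). Adra2a was higher in GR-C3 than in WT cells by 1.35 with vehicle and by 0.5 with Dex (log2). Its smaller rise thus began from a higher level and did not leave it below WT. Rgs16 fell by 1.25 in WT and by 0.39 in GR-C3 cells (interaction 0.86, adjusted p = 0.018).

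Single losses were spread over further lists. Lfng, a glycosyltransferase that modifies Notch receptors, rose 2.82-fold in WT cells and 1.22-fold, not called, in GR-C3 cells (interaction -1.21, adjusted p = 0.0202; -0.80 and not called, adjusted p = 0.0686, with repaired backgrounds). Its GR-C3 level differed from WT by 0.832 with vehicle and by -0.376 with Dex. With Notch4, Lfng made 2 of 16 measured Notch genes (1.14% of all genes were called). Nfil3, a repressor in the clock network, rose 3.21-fold and 1.44-fold (interaction -1.15, adjusted p = 0.00701). Its vehicle level was 0.905 higher in GR-C3 cells, and with Dex limma called no difference between the genotypes (-0.248, adjusted p = 0.0688). Ptgis, prostacyclin synthase, rose 2.06-fold and 1.06-fold, the latter not called (interaction -0.96, adjusted p = 0.0136), from a GR-C3 vehicle level that was 2.31 lower on the log2 scale. Wnt11 rose 2.35-fold in WT cells and 1.24-fold, not called, in GR-C3 cells (interaction -0.92, adjusted p = 0.00977). Ankrd37 and Bnip3, both raised by hypoxia, rose 2.57-fold and 2.18-fold in WT cells, and their GR-C3 changes of 1.36-fold and 1.27-fold were not called. The vehicle level of Ankrd37 was 0.863 higher in GR-C3 cells, and its Dex levels were not called different by limma (-0.06, adjusted p = 0.693). Fos, a component of AP-1, rose 3.37-fold in WT cells and was not called in GR-C3 cells (interaction -1.57, adjusted p = 0.0289; -0.91 with 12 arrays).

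Lost repressions were fewer, and inflammatory and growth factor genes were among them. Of 25 measured cytokines, chemokines and inflammatory enzymes, 15 fell and 0 rose in WT cells, where 6.84% of all genes fell. In GR-C3 cells 6 fell and 1 (Ptx3) rose, where 1.37% of all genes fell. The interaction was called for 2 (8%, against 1.14% of all genes), Cxcl5 and Ccl2, both higher. The median change was -0.74 in WT and -0.23 in GR-C3 cells, and the median interaction 0.48 (0.27 with 12 arrays), with 20 of 25 positive. Il11 was kept, and the remaining members were in no class.

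Cxcl5, a neutrophil-attracting chemokine, lay at -5.19, -3.02 and -2.60 on WT vehicle and -5.08, -5.15 and -4.70 on WT Dex arrays, and at -1.05, -1.17 and -0.93 on GR-C3 vehicle and -1.14, -1.30 and -1.32 on GR-C3 Dex arrays. All GR-C3 arrays lay above all WT arrays, the GR-C3 groups overlapped, and WT vehicle 1 lay with the WT Dex arrays. Cxcl5 fell by 2.17 ± 0.16 in WT cells (4.49-fold), its GR-C3 change of -0.20 was not called (adjusted p = 0.482), and the interaction was 1.96 ± 0.22 (adjusted p = 0.00396; 1.17 with 12 arrays). Ccl2, which attracts monocytes, lay at 2.85, 5.0 and 4.7 on WT vehicle, 2.84, 2.85 and 2.58 on WT Dex, 4.90, 5.07 and 5.08 on GR-C3 vehicle and 4.19, 4.19 and 4.18 on GR-C3 Dex arrays. Its vehicle levels were alike in both genotypes apart from WT vehicle 1, and its Dex levels did not overlap. It fell 4.27-fold in WT and 1.78-fold in GR-C3 cells (interaction 1.26, adjusted p = 0.00734; 0.60 with 12 arrays).

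Has2, which makes hyaluronan at the cell surface, lay at -1.61, 1.49 and 1.47 on WT vehicle and -1.53, -1.35 and -1.86 on WT Dex arrays, and at 2.80, 3.00 and 2.98 on GR-C3 vehicle and 1.58, 1.70 and 1.48 on GR-C3 Dex arrays. GR-C3 cells with Dex were near or above the level of the 2 other WT vehicle arrays. Has2 fell 8.34-fold in WT and 2.53-fold in GR-C3 cells (interaction 1.72 ± 0.20, adjusted p = 0.00411; 0.69 with 12 arrays). Has1, its paralogue, was kept, with falls of 2.81-fold and 2.33-fold (interaction 0.27 with 11 and -0.19 with 12 arrays). Ch25h, cholesterol 25-hydroxylase, lay at -1.04, 1.26 and 1.24 on WT vehicle, -1.47, -1.37 and -1.51 on WT Dex, 1.11, 1.19 and 1.19 on GR-C3 vehicle and -0.04, -0.10 and -0.18 on GR-C3 Dex arrays. Vehicle levels were alike in both genotypes apart from WT vehicle 1, and GR-C3 Dex arrays lay between vehicle and WT Dex. It fell 6.5-fold and 2.40-fold (interaction 1.43 ± 0.11, adjusted p = 0.000597; 0.67 with 12 arrays). The other 21 sterol genes measured had no called interaction, and the median interaction of the list was 0.36.

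**Figure D3:**
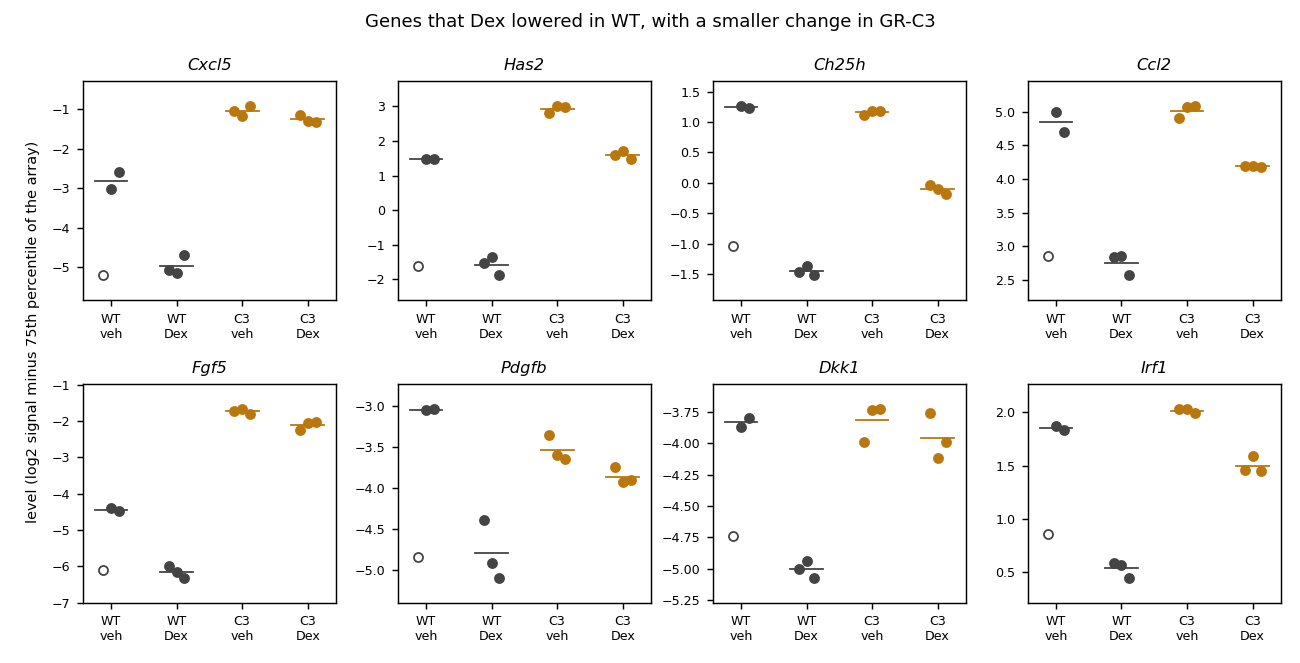
Level of 8 genes with a lost repression (vertical axis, log2 signal minus the 75th percentile of the array) by group (horizontal axis). Points are arrays, the open circle is WT vehicle 1, and bars are group means, for WT vehicle without array 1. In Ch25h and Ccl2 the vehicle levels match and the Dex levels part, whereas Cxcl5 and Fgf5 are above all WT arrays in GR-C3 cells with and without Dex.

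Growth factor genes followed. Fgf5, an FGF ligand, fell 3.30-fold in WT cells from -4.38 and -4.49 (-6.09 on WT vehicle 1) to -6.00, -6.16 and -6.31. In GR-C3 cells it lay at -1.72, -1.67 and -1.81 with vehicle and -2.25, -2.04 and -2.03 with Dex, well above all WT arrays, and that change was not called (adjusted p = 0.0943). The interaction was 1.35 (adjusted p = 0.00439; 0.80 with 12 arrays), but with repaired backgrounds it was 0.12 and not called (adjusted p = 0.891). Pdgfb, a ligand of the PDGF receptors, fell 3.37-fold in WT cells and was not called in GR-C3 cells (interaction 1.43, adjusted p = 0.0272; 0.64 and not called, adjusted p = 0.118, with repaired backgrounds). Dkk1, a secreted Wnt antagonist, fell 2.25-fold in WT cells, was not called in GR-C3 cells (1.10-fold lower) and had an interaction of 1.03 (adjusted p = 0.0206; 0.25 and not called, adjusted p = 0.74, with repaired backgrounds). Dusp4, a phosphatase that ends MAP kinase signals, fell 3.41-fold and 1.55-fold (interaction 1.14, adjusted p = 0.0418), and its 12-array interaction was -0.04; with Errfi1 it made 2 of 16 measured genes of MAP kinase feedback (1.14% of all genes were called). Rspo2, which potentiates Wnt signals, was reduced, with falls of 3.12-fold and 1.85-fold (interaction 0.75, adjusted p = 0.0439).

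Interferon-related genes gave 2 lost repressions in a list of 28 measured (7.14% called, against 1.14% of all genes). Irf1, a transcription factor of the interferon response, lay at 0.86, 1.87 and 1.83 on WT vehicle, 0.59, 0.57 and 0.45 on WT Dex, 2.03, 2.03 and 1.99 on GR-C3 vehicle and 1.46, 1.59 and 1.45 on GR-C3 Dex arrays. All GR-C3 Dex arrays lay above all WT Dex arrays, and WT vehicle 1 lay below the other WT vehicle arrays. It fell 2.48-fold and 1.43-fold (interaction 0.80, adjusted p = 0.0134; 0.47 with 12 arrays). The GTPase gene Irgm1 fell 2.73-fold and 1.64-fold (interaction 0.74, adjusted p = 0.0378). The GTPase gene Tgtp1 fell 3.17-fold in WT cells by the probe with the highest signal (interaction 1.31, adjusted p = 0.0125), whereas another probe gave a WT change of 0.12. The other probe of Fgf21 likewise gave an interaction of -0.12, against 1.10 (adjusted p = 0.0485) for the one used, whose value was 0.49 and not called (adjusted p = 0.303) with repaired backgrounds.

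Kept responses included several of the most strongly induced genes. Per1, a core clock repressor, lay at 1.66, -0.39 and -0.46 on WT vehicle, 1.58, 1.85 and 1.72 on WT Dex, -0.10, -0.16 and -0.31 on GR-C3 vehicle and 1.60, 1.71 and 1.90 on GR-C3 Dex arrays. The Dex groups of both genotypes overlapped, as did WT vehicle 1 with them. Per1 rose 4.40-fold in WT and 3.79-fold in GR-C3 cells (interaction -0.22, 95% interval -0.58 to 0.14), and with 12 arrays the interaction had the other sign, 0.48. Tsc22d3, which encodes the anti-inflammatory protein GILZ, lay at 5.31, 2.18 and 1.99 on WT vehicle, 5.05, 4.93 and 4.55 on WT Dex, 1.44, 1.43 and 1.16 on GR-C3 vehicle and 3.57, 3.56 and 3.73 on GR-C3 Dex arrays. It was lower in GR-C3 cells in both conditions, and it rose 6.78-fold and 4.84-fold (interaction -0.49, 95% interval -0.95 to -0.02, adjusted p = 0.332; 0.59 with 12 arrays). The interval does not show equal responses, only that the difference was below 0.5 times the WT change.

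Sult1a1, a sulfotransferase for phenols and drugs, rose 17.1-fold in WT and 12.4-fold in GR-C3 cells from vehicle levels that were 2.03 lower in GR-C3 cells (interaction -0.46, 95% interval -0.86 to -0.07). With repaired backgrounds the Sult1a1 interaction was -1.23 and called (adjusted p = 0.00155), so its kept response depended on the background correction. Lcn2, a siderophore-binding acute phase protein, lay at -0.09, -5.55 and -4.96 on WT vehicle and -0.09, -0.33 and 0.25 on WT Dex arrays and rose 36.7-fold. In GR-C3 cells it lay at -7.49, -7.16 and -7.01 with vehicle, not well above background on any array, and at -1.11, -1.12 and -1.20 with Dex, a rise of at least 42.7-fold. The Lcn2 interaction was 0.88 (95% interval 0.24 to 1.52), which excludes 0 and rests on that GR-C3 vehicle level. With repaired backgrounds it was -0.76 and not called by limma (adjusted p = 0.0871). The size and sign of the Lcn2 difference are thus not settled. Il11, a cytokine of the IL-6 family, fell 2.28-fold in WT and 2.24-fold in GR-C3 cells (interaction 0.03, 95% interval -0.33 to 0.38). Cdkn1c, a cyclin-dependent kinase inhibitor, rose 1.85-fold and 1.92-fold, and the fibrillar collagen gene Col11a1 rose 1.94-fold and 2.10-fold. Further kept inductions were Ablim3, Angptl7, Clca3a1, Hspb7, Kcnk1, Klk1b24, Lyve1, Myocd and Per2, with WT changes of 1.26 to 3.20 and GR-C3 changes of 1.40 to 2.16. Some of these 95% intervals excluded 0 on the side of a smaller GR-C3 response. They were those of Klk1b24 (-1.57 to -0.51), Kcnk1 (-1.11 to -0.32), Angptl7 (-1.05 to -0.17) and Clca3a1 (-0.80 to -0.16). The interaction of Klk1b24 was called under 2 of 10 other settings, those of Kcnk1 and Clca3a1 under 1 of 11. Gjb6, a connexin gene, rose at least 2.47-fold in WT and at least 1.32-fold in GR-C3 cells, and Ms4a6b at least 4.53-fold in WT and 4.92-fold in GR-C3 cells. Gjb6 passed the filter through the WT Dex arrays only, and neither vehicle group was well above background on any array used. No kept response is therefore read from Gjb6. The other probe of Ablim3 differed, with a change of 0.73 in WT and -0.27 in GR-C3 cells (interaction -1.0), so its kept response held for 1 probe of 2. The other probe of Per2 changed by 0.37 in WT and by -0.10 in GR-C3 cells (interaction -0.47), so its kept response also held for 1 probe of 2. The other probe of Myocd rose by 1.01 in WT and by 1.02 in GR-C3 cells (interaction 0.01).

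**Figure D4:**
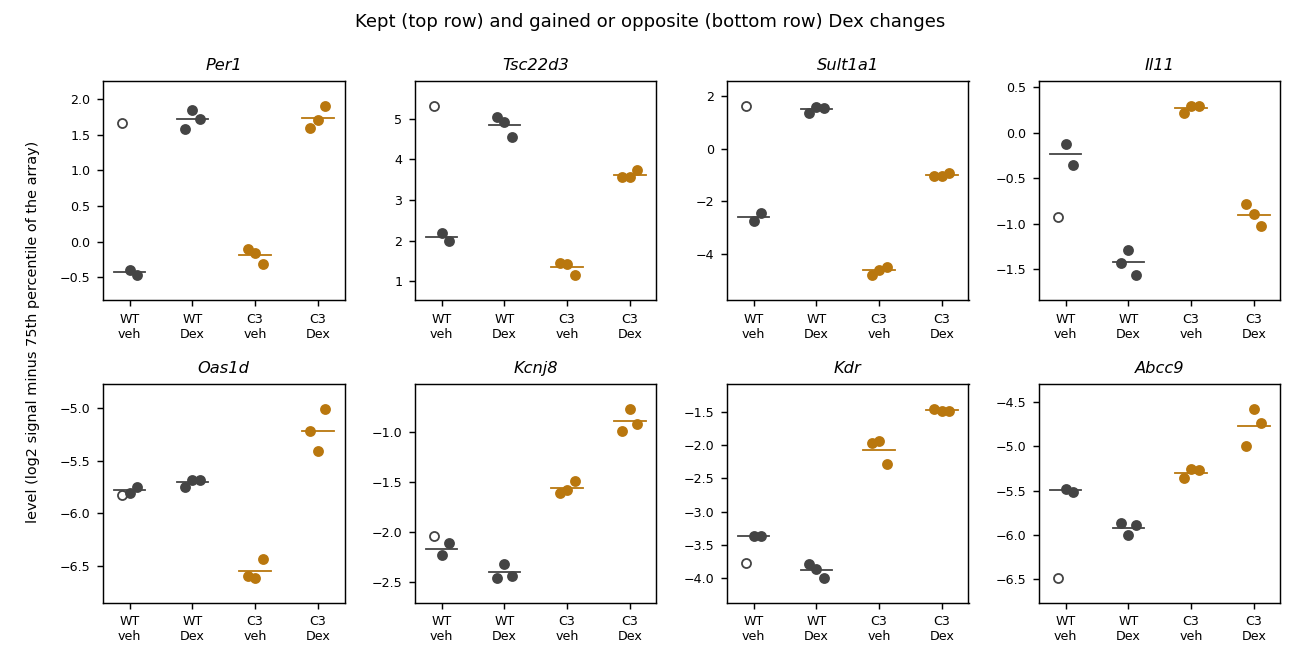
Level of 4 genes with a kept response (Per1, Tsc22d3, Sult1a1, Il11) and 4 genes with a gained or opposite response (Oas1d, Kcnj8, Kdr, Abcc9), on the vertical axis as log2 signal minus the 75th percentile of the array, by group (horizontal axis). Points are arrays, the open circle is WT vehicle 1, and bars are group means, for WT vehicle without array 1. In Oas1d and Kcnj8 the GR-C3 Dex arrays lie above the GR-C3 vehicle arrays while the WT arrays show no such rise.

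Oas1d and Kcnj8 were among the gained rises. Oas1d, of the oligoadenylate synthetase family, lay at -5.83, -5.81 and -5.75 on WT vehicle, -5.75, -5.68 and -5.68 on WT Dex, -6.60, -6.61 and -6.43 on GR-C3 vehicle and -5.22, -5.41 and -5.01 on GR-C3 Dex arrays. The 6 WT arrays lay close together, between the GR-C3 groups. The change was 0.07 in WT and 1.33 in GR-C3 cells (2.52-fold), and the interaction was 1.26 ± 0.16 (adjusted p = 0.00701), or 1.24 ± 0.16 (adjusted p = 0.182) with 12 arrays. With repaired backgrounds the Oas1d interaction was 0.10 and not called (adjusted p = 0.921). Kcnj8, a subunit of the ATP-sensitive potassium channel, lay at -2.04, -2.23 and -2.11 on WT vehicle, -2.46, -2.32 and -2.44 on WT Dex, -1.61, -1.58 and -1.49 on GR-C3 vehicle and -0.99, -0.77 and -0.92 on GR-C3 Dex arrays. It rose 1.59-fold in GR-C3 cells and its WT change was -0.23, not called; the interaction was 0.90 (adjusted p = 0.0133), or 0.94 (adjusted p = 0.226) with 12 arrays.

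Kdr and Abcc9 were called in opposite directions. Kdr, a VEGF receptor, lay at -3.77, -3.36 and -3.37 on WT vehicle, -3.78, -3.86 and -3.99 on WT Dex, -1.97, -1.94 and -2.29 on GR-C3 vehicle and -1.46, -1.48 and -1.48 on GR-C3 Dex arrays. Neither pair of groups overlapped, and all GR-C3 arrays were above all WT arrays. Kdr fell 1.42-fold in WT and rose 1.51-fold in GR-C3 cells (interaction 1.10, adjusted p = 0.0125; 0.97 with 12 arrays, adjusted p = 0.503; 0.71 and not called with repaired backgrounds, adjusted p = 0.0696). Abcc9, which encodes the regulatory subunit that pairs with the Kcnj8 channel, fell 1.34-fold in WT and rose 1.44-fold in GR-C3 cells (interaction 0.95, adjusted p = 0.0237; 0.62 with 12 arrays). With repaired backgrounds the Abcc9 interaction was 0.17 and not called (adjusted p = 0.819), and it was called in 5 of the 11 fits that left out 1 more array. Kdr, Pdgfb and Calcrl (higher) and Ramp2 (lower) were the 4 called genes of 29 measured in the VEGF, PDGF and angiopoietin axes, of which 13.8% were called, against 1.14% of all genes, and whose median interaction was -0.11. Kcnj8 and Abcc9 were the 2 called genes of 33 measured ion channels and transporters, where 6.06% were called and the median interaction was 0.03.

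Of the 13 gained responses that were falls in GR-C3 cells, 7 were named. Olfr1215, Olfr478, Olfr738 and Tas2r118, receptors of smell and taste, and Rab17, a small GTPase of epithelial cells, fell 2.92-fold to 3.41-fold in GR-C3 cells. Spaca5 and Xlr5d were not well above background on any GR-C3 Dex array and fell at least 1.45-fold and at least 1.57-fold. Spaca5 passed the filter through the GR-C3 vehicle arrays only, so no gained response is read from it. Across these genes the WT arrays spread widely: Rab17 lay at -1.68, -4.06 and -4.09 on WT vehicle and at -4.09, -2.96 and -3.39 on WT Dex arrays. The GR-C3 Dex arrays of Rab17 lay at -4.80, -5.09 and -5.48, below GR-C3 vehicle at -3.80, -3.32 and -2.97 (interaction -2.36, adjusted p = 0.0394; -1.56 with 12 arrays). With repaired backgrounds none of these 7 but Tas2r118 was called, and the Rab17 value was -1.27 (adjusted p = 0.0833). Of the 21 gained genes, 8 were not well above background on at least 1 of the 11 arrays.

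Several lists showed no called interaction. For the receptor, its chaperones and coregulators (24 measured), 0 were called and the median interaction was -0.10 (13 negative, 11 positive). Nr3c1 itself lay at 1.20, 1.80 and 1.80 on WT vehicle, 1.26, 1.06 and 1.07 on WT Dex, 1.86, 1.83 and 1.86 on GR-C3 vehicle and 1.53, 1.44 and 1.39 on GR-C3 Dex arrays. With vehicle the GR-C3 level differed from WT by 0.05 (adjusted p = 0.705), with Dex it was higher by 0.32 (adjusted p = 0.0123), and Dex lowered it 1.59-fold in WT and 1.32-fold in GR-C3 cells. Its interaction was 0.27 ± 0.12 (95% interval -0.01 to 0.55, adjusted p = 0.359; 0.07 with 12 arrays), and the 3 other probes gave 0.53 to 0.72. The knockin alters start codons and deletes no transcript, so this level does not check the genotype.

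NF-kappaB subunits (18 measured), collagens and matrix glycoproteins (33), matrix proteases (23), Hox genes (33), DNA replication (26), mitosis (25), cyclin-dependent kinase inhibitors (18), the Bcl2 family (22), TGF-beta and BMP signalling (37), the IGF axis (16), contractile genes (23), heat shock genes (18), complement and acute phase genes (25) and axon guidance genes (37) also had 0 called. Their median interactions lay between -0.19 for complement and 0.165 for axon guidance. These counts do not show that the lists responded alike.

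**Figure D5:**
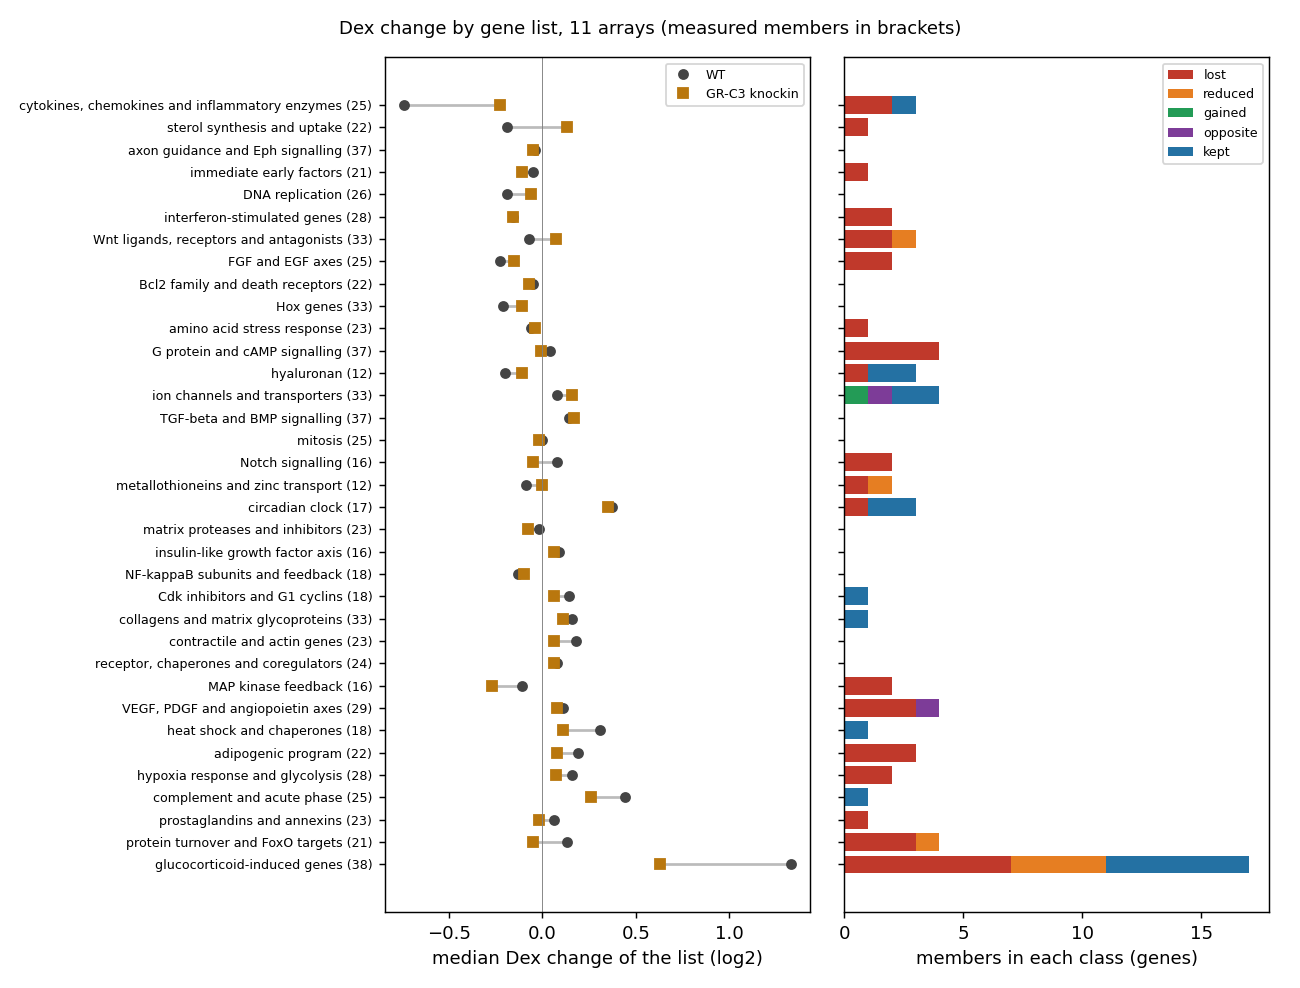
Left, the median Dex change (horizontal axis, log2) of each of 35 gene lists in WT (circles) and GR-C3 cells (squares), on 11 arrays. Right, the number of members of each list (horizontal axis) that were lost, reduced, gained, opposite or kept; the glucocorticoid-induced list has 7 lost, 4 reduced and 6 kept members.

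Among the lost genes outside the lists, the naming rule also gave Klk1b16, Nat3, Pdzrn4, Rassf9, Kprp and Pabpc4l. Pdzrn4, a ubiquitin ligase family member, lay at -2.96, -1.63 and -1.66 on WT vehicle, -3.11, -2.96 and -3.37 on WT Dex, -4.99, -5.12 and -4.92 on GR-C3 vehicle and -4.78, -4.77 and -4.66 on GR-C3 Dex arrays, so it was lower in GR-C3 cells throughout. It fell 2.83-fold in WT cells, was not called in GR-C3 cells (0.27) and had an interaction of 1.77 (adjusted p = 0.00143; 1.33 with 12 arrays). Rassf9 fell 3.85-fold in WT cells and was not called in GR-C3 cells (interaction 1.73, adjusted p = 0.00439). Klk1b16, a kallikrein, rose at least 10.7-fold in WT and at least 2.53-fold in GR-C3 cells, and Nat3, an N-acetyltransferase, at least 11.1-fold in WT cells. Nat3 passed the filter through the WT Dex arrays only and was not well above background on any GR-C3 Dex array. No loss of a response is therefore read from Nat3. Kprp fell 1.86-fold and Pabpc4l 2.43-fold in WT cells. The rule for lost responses also met ccdc198 and Spata5l1, but neither was well above background on any WT array used, so they passed the filter through GR-C3 arrays only and no loss of a WT response is read from them.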

How the data were processed

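RNA of 12 samples was hybridised to one-colour Agilent arrays. Each array held 45018 spots, 1639 of them controls. The authors deposited scanner files with the intensity of each spot, read with Agilent Feature Extraction 9.5 per the submitters' processing notes, and probe positions on build mm7 per the file headers. The deposited series table equals the processed signal for all 45018 spots. The processed signal was divided by each array's 75th percentile of non-control probes and put on the log2 scale; outlier-flagged spots were left out. Of 41174 probes, 30932 passed the filter (well above background on every array of 1 or more groups), and the brightest one stood for each of 20835 genes. Probes were named by accession (22951), symbol (6659) or synonym (3109) through RefSeq, otherwise as in the file (8455).

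limma 3.58.1 in R 4.3.3 fitted the 4 group means and the interaction (lmFit, eBayes, 2-sided, Benjamini-Hochberg over all genes, threshold 0.05), with 8 residual degrees of freedom on 12 arrays and 7 on 11; the median SE of the interaction was 0.23 and 0.194. Precision is limited by how many arrays each group has. A plain permutation of 3 against 3 arrays cannot pass 0.05, so single genes rest on this fit. The code was tested on simulated data. The members and lists were chosen with earlier results of these data known.

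Genes were named by rule: Nr3c1, the 14 highest and 14 lowest called interactions, any gene called with 12 arrays, the 10 kept genes with the largest WT change, up to 4 called and 2 kept members of each list, and up to 4 opposite genes, passing over accession, RIKEN and predicted names. Alternatives were normexp background correction (offset 50), also with outlier local backgrounds replaced by the array median, quantile normalization, median scaling, no or a stricter filter, the mean of a gene's probes, the slide as a fixed or random block, a replicate block, array weights, and leaving out each array.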

Additional observations from a re-analysis of the deposited data

Results flagged for a closer look

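For 60 of the 80 named genes the Dex change differed between the genotypes by limma's test of the difference itself on 11 arrays. With 12 arrays none passed it, and no weighing of causes was made. Most named genes were picked because they were called, so the 60 of 80 follows from the naming rule and is no result. Over all genes 237 of 20835 (1.14%) were called. Each value is the GR-C3 change minus the WT change on the log2 scale.

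Among glucocorticoid-induced genes the values were -3.64 for Slc45a3, -2.23 for Rgcc, -1.76 for Errfi1, -1.65 for Mt1, -1.60 for Cebpd, -1.57 for Glul, -1.13 for Mt2 and -1.03 for Pdk4. Signalling and receptor genes gave -2.43 for Ramp2, -1.79 for Notch4, -1.58 for Adcy5, -1.45 for Rgs2, -1.21 for Lfng, -0.92 for Wnt11, -0.85 for Adra2a and 0.86 for Rgs16. Turnover, stress, adipogenic, clock and enzyme genes gave -1.57 for Fos, -1.44 for Fbxo32, -1.22 for Cebpa, -1.15 for Nfil3, -0.96 for Ptgis, -0.93 for Klf5, -0.92 for Ankrd37, -0.91 for Sesn1 and -0.78 for Bnip3.

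Repressed genes gave 1.96 for Cxcl5, 1.72 for Has2, 1.43 for Ch25h, 1.43 for Pdgfb, 1.35 for Fgf5, 1.26 for Ccl2, 1.14 for Dusp4, 1.10 for Fgf21, 1.03 for Dkk1, 0.80 for Irf1, 0.75 for Rspo2, 0.74 for Irgm1 and 0.58 for Calcrl.

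Genes named by size alone gave -4.88 for Nat3, -2.64 for Kcna5, -2.62 for Tcim, -2.50 for Klk1b16, 1.14 for Pabpc4l, 1.21 for Kprp, 1.31 for Tgtp1, 1.73 for Rassf9 and 1.77 for Pdzrn4. The fitted values of 1.25 for ccdc198 and 1.29 for Spata5l1 measure no response, since neither WT group was well above background. The sizes for Nat3 (WT vehicle and GR-C3 Dex below background), Kcna5 (WT vehicle below) and Klk1b16 (both vehicle groups below) likewise rest on levels that are only bounds. Gained and opposite responses gave -2.97 for Spaca5, -2.97 for Xlr5d, -2.36 for Rab17, -2.32 for Olfr1215, -2.27 for Olfr478, -2.14 for Tas2r118, -2.07 for Olfr738, 0.90 for Kcnj8, 0.95 for Abcc9, 1.10 for Kdr and 1.26 for Oas1d. The falls among the gained genes were largest in genes near background: Spaca5 was not well above background on any WT vehicle array used or any GR-C3 Dex array.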

How the results depend on the processing

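The count of 0 called interactions with 12 arrays became 3 with quantile normalization, 36 with the slide as a fixed block (which absorbs WT vehicle 1, alone on its slide), 842 with array weights (that array's weight was 0.115) and 0 to 237 when 1 array was left out, 237 being without WT vehicle 1. With 11 arrays the 237 became 0 with plain normexp (smallest adjusted p 0.457, 460 at an unadjusted p under 0.05), 371 with quantile normalization, 124 without a filter, 36 and 118 with the slide as a fixed and random block, 1208 with array weights and 58 to 1183 with 1 more array left out. The split of 67 higher and 170 lower became 47 and 241 with median scaling and 39 and 192 with normexp on repaired backgrounds, of 231 called. Lost responses (202) became 0 with plain normexp or 12 arrays, 107 without a filter, 31 and 103 with the slide as a fixed and random block, and 53 to 963 with 1 array left out. Kept responses (49) became 2 with plain normexp, 27 with repaired backgrounds, 24 with the slide as a fixed block, 0 with 12 arrays and 26 to 53 with 1 array left out. Gained responses (21) became 0 with plain normexp or 12 arrays, 8 with repaired backgrounds, 76 with quantile normalization, 36 with median scaling, 8 without a filter, 2 and 5 with the slide as a fixed and random block and 0 to 112 with 1 array left out. The cause of these shifts was not tested.

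Replicate numbers did not pair the samples: 4 of 18 same-number pairs correlated above 0.1 (-0.215 to 0.214). A replicate block gave 276 calls with 11 arrays, 192 of them among the 237, and 1 call with 12.

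For the 80 named genes, 1260 alternative values kept direction and side of the threshold, 504 kept direction but lost the call, 6 gained a call and 55 changed sign. The interval of kept genes was not checked in this count, so a kept gene could lose its interval and still be among the 1260. With 12 arrays the sign changed for Ablim3 (0.38), Angptl7 (0.12), Dusp4 (-0.0395), Gjb6 (0.26), Has1 (-0.19), Hspb7 (0.47), Il11 (-0.21), Kcnk1 (0.18), Klk1b24 (0.17), Lyve1 (0.26), Ms4a6b (0.55), Mt2 (0.0329), Myocd (0.74), Per1 (0.48), Sult1a1 (0.94) and Tsc22d3 (0.59). Plain normexp, which moved the median of all genes to -0.49, changed it for Abcc9 (-1.58), ccdc198 (-2.16), Cxcl5 (-0.65), Dkk1 (-1.24), Fgf21 (-0.95), Fgf5 (-1.77), Has1 (-1.81), Il11 (-0.60), Kcnj8 (-0.23), Kdr (-0.87), Lcn2 (-1.27), Oas1d (-1.61), Pabpc4l (-0.68), Pdgfb (-0.88), Per1 (0.10), Per2 (-0.63), Rassf9 (-0.56), Spata5l1 (-1.86) and Tsc22d3 (0.023). Repaired backgrounds changed it for ccdc198 (-0.14), Has1 (-0.21), Il11 (-0.11), Lcn2 (-0.76) and Spata5l1 (-0.0474), median scaling for Cdkn1c (-0.00995) and Il11 (-0.0346), and the mean of probes for Per2 (-0.15). The slide as a fixed block changed it for Hspb7 (0.29), Per1 (0.0386) and Per2 (-0.00596), as a random block for Hspb7 (0.11), and array weights for Hspb7 (0.0214). With 1 array left out, the range was -0.148 to 0.118 for Hspb7, -0.0927 to 0.146 for Il11 and -0.0402 to 0.146 for Cdkn1c, all of which crossed 0.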
